A study of Homo sapiens with 4 samples.

Results

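CRHBP and 8 other genes that mark blood stem and progenitor cells, HLF, MECOM, MLLT3, MYB, HOPX, PROM1, CD34 and SPINK2, were followed in day 8 cultures treated with DMSO or with SB431542 (SB), a small molecule that blocks the kinase of the TGFβ type I receptors. H1, a line of human embryonic stem cells, was the source of all 4 libraries, 2 from DMSO-treated cells and 2 from SB-treated cells. Both groups received 40 ng/ml activin A and 50 ng/ml BMP4 for 2 days and then 40 ng/ml VEGF and 50 ng/ml bFGF for 3 days, and the inhibitor was present or absent in the last 3 days of VEGF and bFGF. The study sorted CD31-positive cells before sequencing, which the labels do not state, and CD31 is carried by endothelium and by some blood cells. The genes were chosen by name, with the SB and DMSO values of these same libraries already known, and a symbol with several rows would have been selected on its highest mean FPKM. Each of the 9 had 1 row among the 58365 rows of the table. Their differences between SB and DMSO are therefore given as a description.

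Blood stem cells arise in the embryo when specialized arterial endothelium turns into blood, the endothelial-to-hematopoietic transition (EHT). Stem cells are usually recognized by surface proteins such as CD34 and by a set of nuclear factors that keep them undifferentiated, among them HLF, MECOM and MLLT3, while MYB is needed for definitive blood formation. TGFβ signaling restrains EHT and also maintains the vascular wall, and SB431542 blocks it at the receptor.

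The levels are FPKM, which count fragments relative to transcript length and library size, so that genes of different length can be set side by side. Values of single-exon genes fall on steps of 0.0384 to 0.0508 FPKM per fragment in 1 kb, and the depth this implies was lowest in SB replicate 1, at 75.6% of that of SB replicate 2. PECAM1, the gene for CD31, ranged from 153 to 197 FPKM over the 4 libraries, and TGFBI, a target of the pathway, stood at 29.7 and 31.0 FPKM with DMSO and at 4.10 and 4.93 FPKM with SB. The labels give replicate numbers 1 and 2 in each group and do not say whether the libraries came from separate cultures, so p-values measure only the spread between these libraries. The difference within each replicate number is given as a description.

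The 9 genes ranged from nearly undetected to abundant. In both DMSO libraries the order was CD34, CRHBP, MECOM, MYB, HOPX, MLLT3, PROM1, SPINK2 and HLF. CD34 and CRHBP overlapped in the DMSO libraries, as did MYB and HOPX, while MECOM lay below the lowest CRHBP value. With SB the order was CD34, MECOM, MYB, HOPX, MLLT3, CRHBP, SPINK2, PROM1 and HLF in both libraries. CRHBP was thus placed next to MLLT3, with overlapping values, instead of next to CD34.

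**Figure D1:**
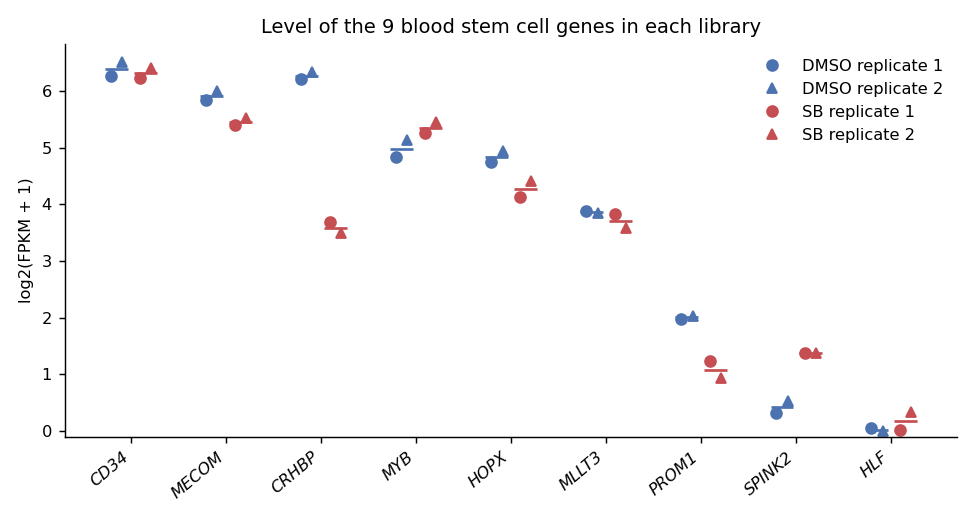
Level of each of the 9 genes as log2(FPKM + 1), with DMSO libraries in blue, SB libraries in red, replicate 1 as circles and replicate 2 as triangles; short lines are group means (n = 2). CRHBP shows the widest gap between the groups, CD34 overlaps, and HLF is near 0 in all libraries.

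CRHBP encodes a secreted glycoprotein that binds corticotropin-releasing hormone (CRH) and urocortin and keeps them from their receptors, and its transcript is enriched in human blood stem cells. The gene (ENSG00000145708.10) lies on the plus strand of chromosome 5, from 76952713 to 76981158 on GRCh38. DMSO libraries held 72.8 and 79.7 FPKM of CRHBP, and SB libraries held 11.9 and 10.2 FPKM. Both SB values were below both DMSO values, by a wide margin compared with the gap between replicates. The group means were 76.2 ± 4.86 and 11.1 ± 1.21 FPKM (SD, n = 2 each), so the level with DMSO was 6.89 times that with SB. On the log2(FPKM + 1) scale, which is used for all differences below, SB minus DMSO was -2.68 (SE 0.17), with -2.51 within replicate number 1 and -2.85 within number 2. The limma adjusted p over all tested genes was 0.0353, and it was 0.109 to 0.135 with any 1 of the 4 libraries left out. By size this was the 23rd lowest difference of the 14909 tested genes. By level, CRHBP ranked 1308 and 1005 among all rows in the DMSO libraries and 6773 and 7360 in the SB libraries. It made up 26.5% and 25.4% of the summed FPKM of the 9 genes with DMSO, against 6.05% and 4.73% with SB.

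**Figure D2:**
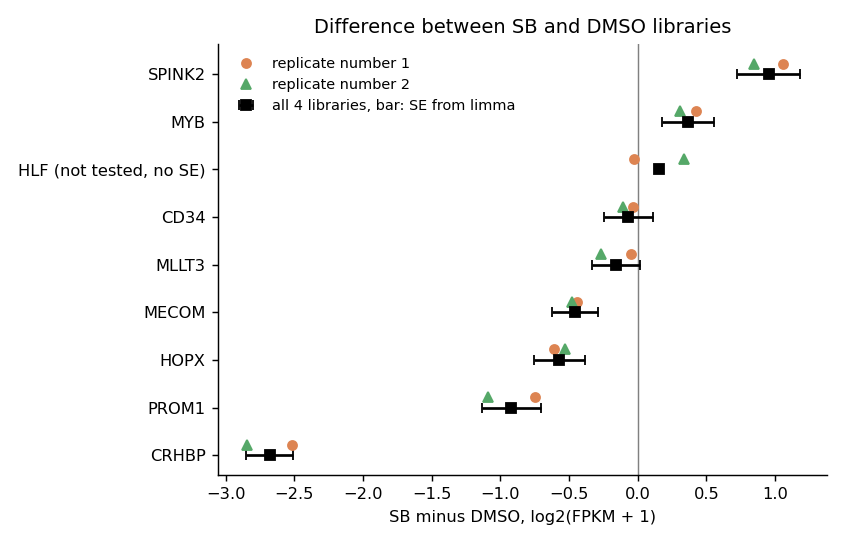
Difference between SB and DMSO libraries on the log2(FPKM + 1) scale for each of the 9 genes; squares use all 4 libraries with the limma SE as the bar, circles and triangles are the differences within replicate numbers 1 and 2. CRHBP lies at -2.68, the other tested genes lie between -0.92 and 0.95, and HLF, which was not tested, has no SE.

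The promoter of CRHBP is shown because the gene had the largest difference of the 9. The window from RefSeq, 250 bases before the start site to 50 after it, is chr5:76952795-76953094 on the plus strand of GRCh38.p14. Capitals mark matches to the motifs searched.

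CRHBP: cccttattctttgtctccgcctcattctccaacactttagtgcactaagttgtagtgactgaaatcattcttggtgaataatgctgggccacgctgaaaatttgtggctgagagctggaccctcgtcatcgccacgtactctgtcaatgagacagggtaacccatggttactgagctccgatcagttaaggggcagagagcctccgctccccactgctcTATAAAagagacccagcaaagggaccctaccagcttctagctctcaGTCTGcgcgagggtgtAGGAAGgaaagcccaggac

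It holds a TATAAA match 31 bases before the start site, as 11.5% of all 35116 RefSeq windows of this length hold at least 1 TATAAA. It also holds the SMAD-type letters CAGAC on the opposite strand, present in 45.3% of windows. The ETS-type letters AGGAAG lie 31 bases after the start site, and 45.4% of windows hold these or the other ETS form searched, CCGGAA. The RUNX-type letters TGTGGT, present in 13.1% of windows, were not found on either strand. The GATA-type letters AGATAA and, as the other form searched, TGATAA were not found either and occur in 16.3% of windows. All 9 genes had such windows, 17 in total. The letters TTACGTAA or TTATGTAA, to which HLF and its relatives bind, occurred in 0 of the 17 and in 1.01% of all windows.

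Genes for the ligands and receptors of the CRH system were low, with 5 of the 6 under 1 FPKM in each library. CRH reached at most 0.130 FPKM, and UCN2 and UCN3 at most 0.340 and 0.133 FPKM. The receptors CRHR1 and CRHR2 reached at most 0.118 and 0.0720 FPKM and were listed at 0 in SB replicate 2. Urocortin, UCN, was the only 1 of the 6 genes of this system to pass the filter of a mean of 1 FPKM in a group, at 0.631 and 1.42 FPKM with DMSO and at 0.499 and 0.377 FPKM with SB (limma adjusted p 0.738). UCN passed only through the DMSO group, where it was higher.

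Among the transcription factors, MECOM and MYB differed in opposite directions (limma adjusted p 0.479 and 0.672) and HLF was barely detected. MECOM (ENSG00000085276.17, chromosome 3, 169083499 to 169663618) encodes EVI1 and its longer form MDS1-EVI1, zinc finger proteins of stem cells and endothelium. It stood at 56.1 and 63.3 FPKM with DMSO and at 41.1 and 45.2 FPKM with SB. The SB libraries were lower without overlap, with a difference of -0.46 (SE 0.17), close to the same within number 1 (-0.44) and number 2 (-0.48). The table gives 1 value for 17 annotated coding transcripts, so the forms cannot be told apart. The pseudogene RPL22P1, which lies inside MECOM on the same strand, was at 14.1 to 18.8 FPKM. The closest relative, PRDM16, also a factor of stem cells, was at 10.9 and 9.004 FPKM with DMSO and at 5.03 and 3.77 FPKM with SB, a difference of -1.03 (SE 0.21, limma adjusted p 0.223).

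MYB (ENSG00000118513.18, chromosome 6, 135181315 to 135219173), a factor that drives the growth of blood progenitors, stood at 27.5 and 34.3 FPKM with DMSO and at 37.2 and 42.7 FPKM with SB. Both SB values were above both DMSO values, but the groups were separated by less than the gap within either of them. The difference was 0.37 (SE 0.19), with 0.42 and 0.31 within numbers. MYBL2, a relative used by dividing cells, stood at 13.9 and 12.9 FPKM with DMSO and at 19.3 and 17.7 FPKM with SB (difference 0.44, SE 0.16, limma adjusted p 0.482). MYBL1 stayed under 1 FPKM in each library. Genes on either side of MYB did not share its direction in these values: HBS1L had a difference of -0.039 (SE 0.20) and AHI1 of -0.47 (SE 0.25).

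HLF (ENSG00000108924.13, chromosome 17, 55265012 to 55325065), a PAR bZIP factor and a marker of human blood stem cells, was listed at 0.0374 and 0 FPKM with DMSO and at 0.0195 and 0.260 FPKM with SB. If all fragments came from its longest coding transcript of 5547 bases, these values would equal about 4.8, 0, 2.0 and 35.7 fragments. Only SB replicate 2 stood apart, and the direction differed between the numbers (-0.025 and 0.33), so HLF gave no comparison and did not pass the filter. Its relatives TEF, DBP and NFIL3 were present at 2.48 to 5.78 FPKM. Their differences were -0.29, -0.074 and 0.083, with limma adjusted p of 0.727 to 0.979.

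MLLT3 (ENSG00000171843.15, chromosome 9, 20341665 to 20622543) encodes AF9, a chromatin reader that recruits elongation factors and supports self-renewal of human blood stem cells. It stood at 13.7 and 13.5 FPKM with DMSO and at 13.3 and 11.01 FPKM with SB. Although the groups did not overlap, SB replicate 1 lay closer to the DMSO libraries than to the other SB library. The difference was -0.16 (SE 0.17), with -0.045 within number 1 and -0.27 within number 2. Its relative MLLT1 and the partners AFF1, AFF4, ELL2 and DOT1L overlapped between groups in 5 of 5 genes. Most tested genes overlap, with 16.0% lower and 21.5% higher without overlap, so this says little about these partners.

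HOPX and SPINK2 are adjacent coding genes on chromosome 4 and differed in opposite directions. HOPX (ENSG00000171476.21, 56647988 to 56681899) encodes a small homeodomain protein that does not bind DNA and acts through partners such as SRF and HDAC2. It stood at 25.8 and 29.8 FPKM with DMSO and at 16.6 and 20.3 FPKM with SB, without overlap (difference -0.57, SE 0.19; -0.61 and -0.53 within numbers). SRF and HDAC2 overlapped between groups (differences 0.17 and 0.15). SPINK2 (ENSG00000128040.10, 56809860 to 56821742), a Kazal-type inhibitor of serine proteases that marks early blood progenitors, stood at 0.242 and 0.449 FPKM with DMSO and at 1.59 and 1.60 FPKM with SB. The difference was 0.95 (SE 0.23), with 1.06 and 0.85 within numbers. SPINK2 passed the filter only through the SB group, where it was higher. Taken at its longest coding transcript of 763 bases, the 4 values correspond to about 2.9, 5.0, 14.8 and 19.8 fragments, so counting error is large. With a pseudocount of 0.1 the difference became 1.97.

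The gap between HOPX and SPINK2 is 127960 bases, with no other coding gene in it in GENCODE release 29. THEGL, on the other side of HOPX, stayed under 1 FPKM in each library, and REST, a repressor gene beyond SPINK2, had a difference of -0.076 (SE 0.18). CRHBP differed from its neighbours too. S100Z reached at most 0.522 FPKM, and AGGF1, an angiogenic factor gene 48092 bases away, had a difference of 0.17 (SE 0.18).

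**Figure D3:**
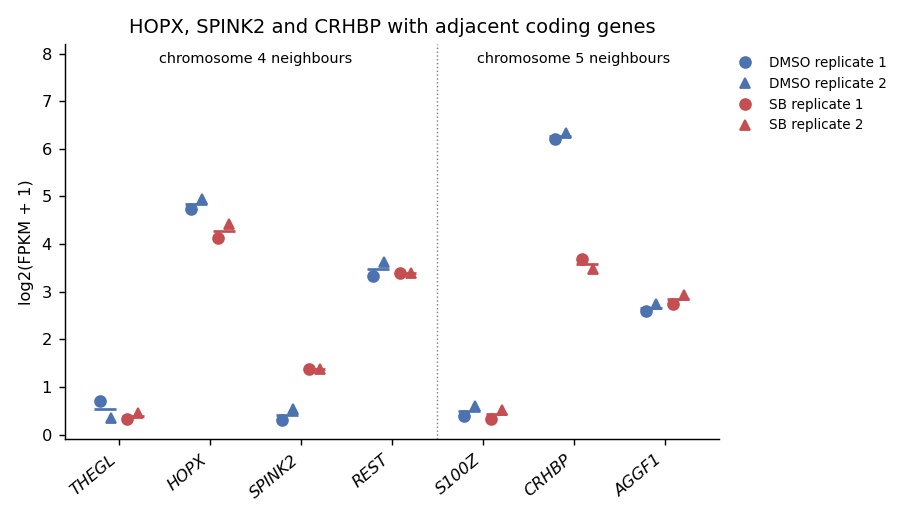
Levels as log2(FPKM + 1) of HOPX, SPINK2 and CRHBP with the adjacent coding genes in chromosome order (spacing not to scale), by library as in the legend; short lines are group means (n = 2). HOPX is lower and SPINK2 higher in the SB libraries, while REST and AGGF1 differ by -0.076 and 0.17.

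The promoters of this pair are shown because the genes are adjacent coding genes that differed in opposite directions (limma adjusted p 0.436 for HOPX and 0.278 for SPINK2). RefSeq gives 2 windows for each gene, and gene-level FPKM does not tell which start site was used. The window of HOPX with motif matches is chr4:56656468-56656767 and that of SPINK2 with the most matches is chr4:56821652-56821951, both on the minus strand of GRCh38.p14 and read in the direction of transcription. Capitals again mark matches.

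HOPX: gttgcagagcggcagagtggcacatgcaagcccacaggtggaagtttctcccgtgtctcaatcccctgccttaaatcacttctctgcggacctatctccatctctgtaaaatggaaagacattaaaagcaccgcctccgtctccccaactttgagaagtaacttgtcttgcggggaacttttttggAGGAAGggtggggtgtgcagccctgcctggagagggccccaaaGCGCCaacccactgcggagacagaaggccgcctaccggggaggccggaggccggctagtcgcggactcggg

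SPINK2: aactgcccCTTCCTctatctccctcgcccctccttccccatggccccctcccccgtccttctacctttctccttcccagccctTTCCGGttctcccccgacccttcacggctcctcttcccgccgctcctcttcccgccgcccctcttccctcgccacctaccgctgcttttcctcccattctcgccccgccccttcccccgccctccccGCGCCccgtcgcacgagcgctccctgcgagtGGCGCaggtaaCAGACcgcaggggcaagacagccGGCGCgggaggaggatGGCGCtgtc

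HOPX held 1 match to AGGAAG and 1 to GGCGC, the GC-rich SMAD-type letters found in 48.6% of all windows, and its other window held none of the motifs. SPINK2 held CAGAC once, GGCGC 4 times and ETS-type letters at 2 places, which also lie in its overlapping other window. The GC content was 58.3% for HOPX and 69.7% for SPINK2, with a median of 58.7% over all windows and 51.7% for CRHBP. These matches are descriptions of the letters and not binding sites.

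Of the surface proteins, CD34 overlapped between the groups and PROM1 did not (limma adjusted p 0.966 and 0.267). CD34 (ENSG00000174059.16, chromosome 1, 207880972 to 207911402), a sialomucin of blood progenitors and of endothelium, stood at 75.5 and 89.9 FPKM with DMSO and at 73.9 and 83.6 FPKM with SB. The groups overlapped, with a difference of -0.067 (SE 0.18) whose sign changed to 0.057 without DMSO replicate 2 and to 0.020 without SB replicate 1. Of its relatives, PODXL was at 31.1 and 31.4 FPKM with DMSO and at 22.4 and 24.1 FPKM with SB (difference -0.42, limma adjusted p 0.493), and EMCN had a difference of 0.057. PROM1 (ENSG00000007062.11, chromosome 4, 15963076 to 16084378) encodes CD133, a membrane protein of blood progenitors that many epithelia also carry. It stood at 2.94 and 3.10 FPKM with DMSO and at 1.34 and 0.924 FPKM with SB, without overlap (difference -0.92, SE 0.21; -0.75 and -1.09 within numbers). With a pseudocount of 0.1 this became -1.36. PROM2 had a difference of 0.18 (SE 0.27).

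Across the 9 genes, 8 passed the filter and HLF did not. Of the 8, CRHBP was called at a limma adjusted p under 0.05, as were 0.134% of all tested genes. The other 7 had adjusted p of 0.267 to 0.966. When replicate number entered the fit as a block, 4 of the 8 were called (CRHBP, MECOM, HOPX and PROM1), against 10.5% of all tested genes. Both SB libraries lay below both DMSO libraries in 5 of the 8, against 16.0% of all tested genes, and above them in 2, against 21.5%. Since this contrast was known when the genes were chosen, nothing is read from these counts. Within replicate numbers, 8 of the 9 genes had the same sign in both, HLF being the exception. Where the groups do not overlap the signs must agree, so only those of CD34 and HLF were free to differ.

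**Figure D4:**
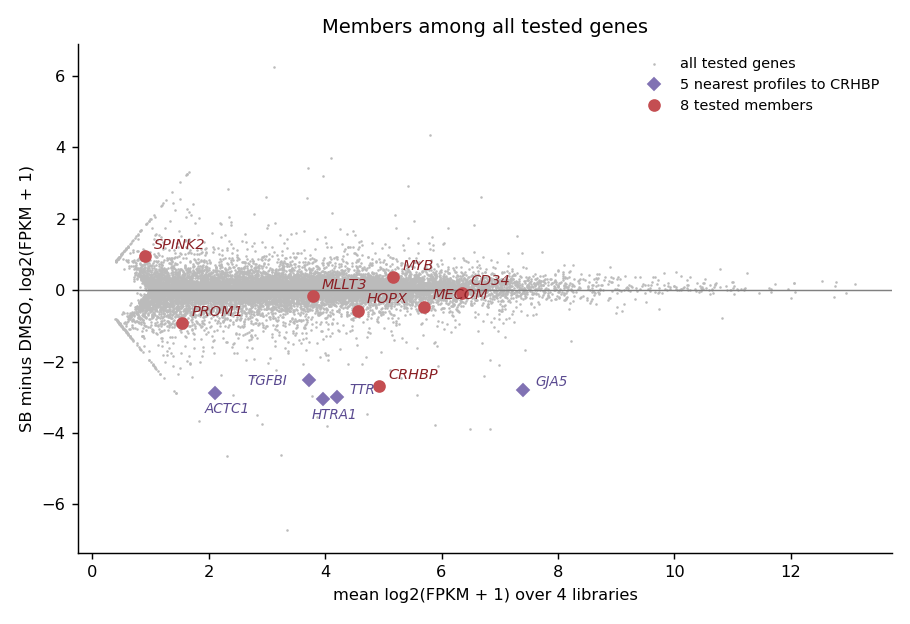
Difference between SB and DMSO against mean level for all 14909 tested genes (grey), the 8 tested members (red) and the 5 genes whose profile is nearest to that of CRHBP (purple). These 5 were taken from genes above 1 FPKM in each library of their higher group. Both axes are on the log2(FPKM + 1) scale. CRHBP at -2.68 lies within the range of differences of those 5 genes, from -3.04 (HTRA1) to -2.51 (TGFBI), and below the other members. The mean levels of the 5 genes vary.

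The wider set of blood stem cell genes, 47 genes listed by hand, showed no common direction. Of the 39 that passed the filter, 0 were called by limma over all genes, with 7 higher and 5 lower at an unadjusted p under 0.05, a level that 9.96% of all tested genes passed. With the replicate block 14 of the 39 were called, 8 higher and 6 lower, beside the 10.5% of all tested genes. The list was written with results of these libraries known, so nothing is read from these shares. The median difference was 0.057, beside 0.040 over all tested genes. Among transcription factors, GFI1, a repressor active during EHT, had the largest difference at -1.32 (SE 0.18, limma adjusted p 0.109), with 13.7 and 11.3 FPKM in DMSO libraries against 4.47 and 4.32 FPKM in SB libraries. RUNX1, the master factor of EHT, stood at 35.3 and 33.6 FPKM with DMSO and at 69.8 and 53.6 FPKM with SB (0.81, SE 0.19, limma adjusted p 0.280). HOXA5, HOXA7, HOXA9 and HOXA10, factors of definitive blood stem cells, stayed under 1 FPKM in each library, the highest value being 0.282 FPKM. The cytokine receptor FLT3 reached at most 0.0127 FPKM. Of the 7 chromatin and RNA regulators, 0 passed an unadjusted p under 0.05, beside 9.96% of all tested genes, and so few genes say little about this role.

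Besides GFI1, the differences of largest size in the wider set were those of BAALC, HEMGN and ANGPT1. BAALC, a cytoplasmic protein of progenitors, was at 15.3 and 8.62 FPKM with DMSO and at 33.3 and 44.5 FPKM with SB (1.66, SE 0.32, limma adjusted p 0.205). HEMGN, a nuclear protein of blood cells, was at 0.194 and 0.357 FPKM with DMSO and at 2.03 and 2.92 FPKM with SB (1.44, SE 0.25, limma adjusted p 0.170). Like SPINK2, HEMGN passed the filter only through the SB group, where it was higher. ANGPT1, the ligand of the receptor TEK, was at 3.12 and 3.60 FPKM with DMSO and at 8.54 and 11.2 FPKM with SB (1.31, SE 0.21, limma adjusted p 0.144). CXCR4, the chemokine receptor that holds stem cells in their niche, differed by -0.94 (SE 0.22, limma adjusted p 0.274), NPR3 by 0.88 (limma adjusted p 0.227) and PROCR by -0.60 (limma adjusted p 0.373). The groups did not overlap for any of these 6 genes, while over all tested genes 21.5% were higher and 16.0% lower without overlap. Genes named for a large difference are unlikely to overlap, so nothing is read from this.

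**Figure D5:**
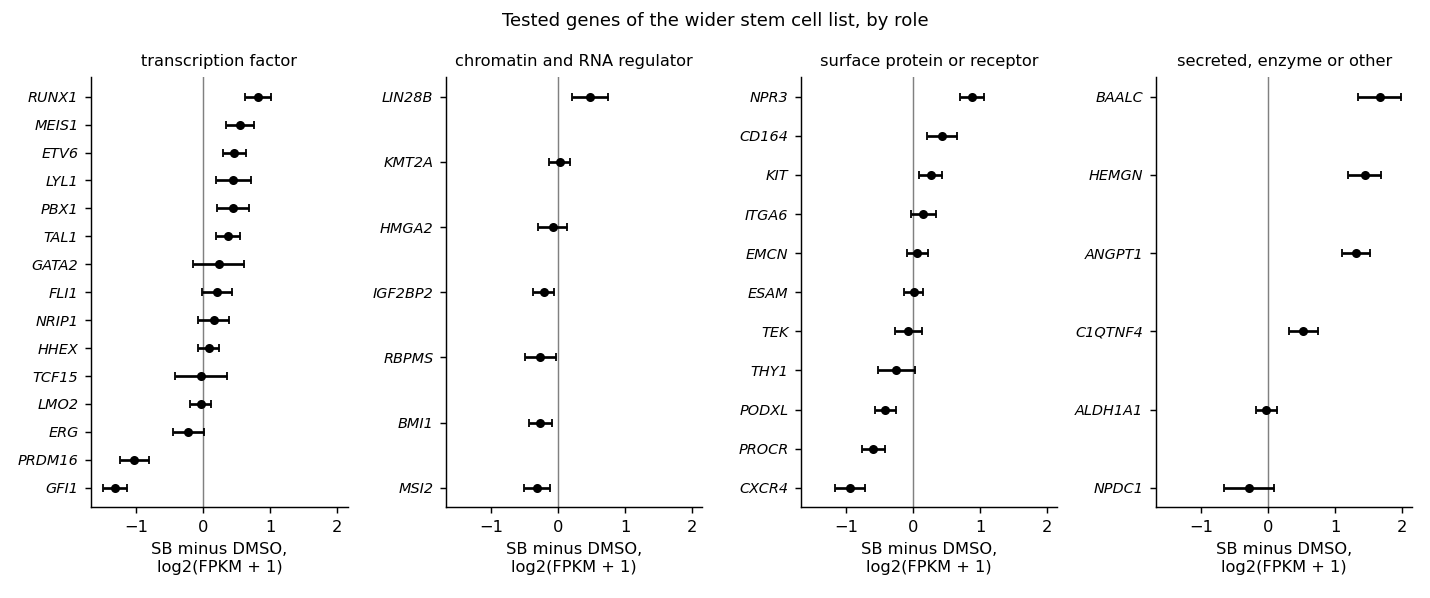
Difference between SB and DMSO on the log2(FPKM + 1) scale with the limma SE for the 39 tested genes of the wider stem cell set, grouped by role. Values run from -1.32 (GFI1) to 1.66 (BAALC), on both sides of 0 in each role.

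The genes most like CRHBP were sought by the distance between profiles over the 4 libraries, each centred on its own mean. Only genes above 1 FPKM in each library of their higher group were listed. The nearest of these were GJA5, a connexin of arterial endothelium (distance 0.32), ACTC1, the cardiac actin gene (0.33), TGFBI (0.35), the protease gene HTRA1 (0.37) and TTR, a serum protein of liver and endoderm (0.39). ACTC1, at 0.519 and 0.677 FPKM with SB, passed the filter only through the DMSO group, where it was higher. GJA5 had 491 and 399.8 FPKM in DMSO libraries against 69.3 and 58.3 FPKM in SB libraries. With 4 points, all 5 likenesses rest on the same gap between groups. PROM1 was the nearest of the other members, at rank 265, followed by HOPX at 817 and MECOM at 1154. These ranks are over all tested genes, without the limit on level.

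Markers of several cell types differed between the groups, and less RNA per cell cannot be told apart from fewer cells of a type. The summed FPKM of 10 endothelial markers was 2465 and 2019 with DMSO and 2390 and 2009 with SB, and 6 of the 10 overlapped. Single markers differed more than these sums. ENG, a TGFβ co-receptor, had a difference of -1.72 (limma adjusted p 0.0986, 0.00360 with the replicate block), ROBO4 of -1.09 (0.135 and 0.0116) and the tight junction gene CLDN5 of 1.04 (0.318 and 0.00695), while CDH5 had -0.28 and PECAM1 -0.11. For 6 markers of emerging blood the sums were 210.2 and 185 with DMSO and 355 and 318 with SB, with PTPRC and CD38 under 1 FPKM throughout. Megakaryocyte markers summed to 122 and 133 with DMSO and to 396 and 519 with SB, all 5 higher without overlap. Of these, PPBP, at 0.559 and 1.29 FPKM with DMSO, passed the filter only through the SB group, where it was higher. Over all tested genes, 21.5% were higher and 16.0% lower without overlap, and nothing is read from the overlap counts of these markers. Myeloid markers summed to 116 and 97.7 against 283 and 263, with MPO and CD14 under 1 FPKM. The 6 erythroid markers summed to 954 and 991 with DMSO and to 639.5 and 735 with SB, of which the embryonic globin HBE1 made up 614 and 676 against 459.7 and 524. HBE1, HBZ and ALAS2 were lower without overlap, and GYPB and KLF1 overlapped with differences of 0.20 and 0.075. Sums were also lower with SB for 6 mesenchymal markers (253 and 237 against 118 and 127) and for 4 markers of endoderm and liver (155 and 170.1 against 12.8 and 12.2). Of the latter, AFP, TTR and APOA1 were called lower by limma and FOXA2 was not (adjusted p 0.291). Over all tested genes 0.134% were called in either direction. The marker lists were written with results of these libraries known, so nothing is read from these calls. Lymphoid and pluripotency markers summed to less than 2 FPKM. The part of these markers in the values of CRHBP, PROM1 and the other members was not tested.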

How the data were processed

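RNA-seq of 4 libraries, 2 per group, was taken as the FPKM table deposited by the authors, which has 1 column per library. The study had the RNA-seq analysis run by a company. The labels list BWA, Bowtie and RSEM without roles and the build hg19, and versions are not given in the sources used here. Positions matched GENCODE release 29 on GRCh38 (95.5% of rows by identifier, 99.8% of these at the same place), so GRCh38 is used and coordinates count from 1. Strand use is not stated.

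Values were set to log2(FPKM + 1). Rows with a mean of at least 1 FPKM in a group (14909) were fitted with limma 3.58.1 in R 4.3.3 (group as the only term, empirical Bayes with trend), with two-sided p adjusted by Benjamini-Hochberg at 0.05. The fit was tested on simulated data. Fragment numbers were estimated from single-exon genes. Promoters came from RefSeq (GRCh38.p14).

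The members and gene lists were chosen with earlier results of these data known. Named genes are the 9 members, genes of the hand-written lists (values for up to 3 per list with the largest differences), adjacent coding genes, the 5 nearest profiles, and PECAM1, CDH5, TGFBI and SKIL as checks, 1 further check gene not being reported here. RUNX1 and ANGPT1, of the wider stem cell set, are given with values beyond the limit of 3 per list. Others were named after their values were seen. SKIL had a difference of -1.76. Alternatives were other filters, a pseudocount of 0.1, quantile and upper-quartile scaling, a replicate block and leaving out each library.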

Additional observations from a re-analysis of the deposited data

How the results depend on the processing

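The difference in CRHBP lay between -2.78 and -2.58 under all alternatives, and its limma call was lost without the filter (adjusted p 0.300) and with any 1 library left out (0.109 to 0.135), when 0 members were called. Of 78 values of members under alternatives, 68 kept direction and call, 5 lost the call (all CRHBP), 3 gained it with the replicate block and 2 (CD34) changed sign, to 0.057 and 0.020 within a range of -0.19 to 0.057 with 1 library left out. Genes called numbered 20 by limma, 31 with quantile normalization, and 0 to 16 with 1 library left out (0 without DMSO replicate 1, with 1101 at an unadjusted p under 0.05; 7 without SB replicate 1). Without the filter, for rows above 0 in a library, 0 genes and 0 members were called, with 2739 at an unadjusted p under 0.05. With the replicate block 1564 genes, 4 members and 14 genes of the wider stem cell set were called. The deviations of same-numbered libraries from their group means correlated at r = 0.528 over genes, but 2 pairs do not establish a pairing. Genes whose groups did not overlap numbered 5596, 9501 without the filter, 3646 with at least 5 FPKM in at least 2 libraries, and 9314 to 11203 with 1 library left out. Leaving out a library makes an overlap less likely by construction, and the lone library was assumed to vary like the other group. With group as the only term, CRHBP alone of the members was called, and the other 7 tested had limma adjusted p of 0.267 to 0.966. With 2 libraries a group, differences as small as those of MYB or MLLT3 could not be separated from the spread.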
